A study of Mus musculus with 9 samples.

Results

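The miR-148 and miR-152 family is a group of 3 microRNAs, miR-148a, miR-148b and miR-152, whose 3p arms share 1 seed. Its members were taken as the 6 mature arms of the 3 hairpins, that is, 6 reference 5′ ends of reads among the 3641 5′ ends that averaged at least 10 RPMM in the 6 replicated libraries. RPMM is the read count of a 5′ end scaled to 1e6 mapped reads, and a 5′ end is the genomic position at which reads start. The 3p arms and the 5p arms of miR-148a and miR-148b were placed where the read weights equalled the values that the study lists under these names. miR-152-5p is not in those lists and was placed from the RefSeq hairpin, 39 nt from the start of miR-152-3p. The members were picked by name, not by their values.

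The study compared kits for making small RNA libraries, in which an adapter is ligated to the 3′ and the 5′ end of each RNA and the product is reverse transcribed and amplified. The TruSeq and v1.5 kits use adapters of fixed sequence, whereas the NEXTflex V2 adapters end in random bases where they meet the RNA. The libraries were 3 of TruSeq and 3 of v1.5 from MIN6 cells on the GAIIx sequencer, 1 of NEXTflex from MIN6 on the HiSeq, and 1 each of TruSeq and NEXTflex from mouse liver on the HiSeq. MIN6 is a mouse insulinoma line that resembles pancreatic beta cells, grown here in DMEM with 25 mM glucose and heat-inactivated serum. The liver RNA came from 1 female C57BL/6J mouse, 9 weeks of age when bought, which had been injected with saline and fasted, and both liver libraries were made from that RNA. The NEXTflex library of MIN6 was made at another site and time from another RNA preparation than the 6 GAIIx libraries. Where it is set against TruSeq in MIN6, kit, RNA, sequencer and site cannot be told apart, and the same holds for sequencer and tissue where the TruSeq libraries of liver and MIN6 are compared. The study calls the replicates biological, but the labels do not say that they are separate cultures. The p-values hence measure the spread between these libraries, which may be technical.

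Each library held between 6644520 and 25566100 mapped reads. The NEXTflex libraries had fewer distinct alignments per 1000 reads (9.82 in MIN6 and 12.5 in liver) than the GAIIx libraries (65.6 to 97.0) and TruSeq liver (143.7), so a value listed at 0 in NEXTflex is to be read with that in mind. Intervals and limits below cover counting error only. Summed cell type markers were as labelled, though not every marker separated the sources. The beta-cell miRNAs miR-375-3p, miR-7a-5p and miR-182-5p summed to between 89343 and 332423 RPMM in the MIN6 libraries and to 784 and 894 RPMM in liver, and the hepatocyte miRNAs miR-122-5p, miR-192-5p and miR-802-5p to at most 1480 RPMM in MIN6 and at least 100014 RPMM in liver. Across kits, miR-802-5p did not separate the sources, at 628 RPMM in NEXTflex MIN6, 504 in TruSeq liver and 858 in NEXTflex liver. Liver also held red blood cell (1703 and 6411 RPMM), endothelial (2725 and 8967), stromal (2141 and 9996) and immune cell (85.4 and 3965) miRNAs, the lower sum being that of NEXTflex in each case. The sums cover the listed miRNAs that had a position, 2 of 3, 2 of 2, 3 of 4 and 2 of 4 in that order. Among these, the endothelial miR-126-3p went the other way, at 1884 RPMM in NEXTflex liver and 463 in TruSeq liver. The part of these cell types in the results was not tested. In tissue, fewer cells of a type and less RNA per cell cannot be told apart.

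A microRNA hairpin is cut by Drosha and Dicer into a duplex of a 5p and a 3p arm, of which usually 1 arm is kept in Argonaute and becomes the more abundant. The kept arm finds its targets mainly through its seed, bases 2 to 8. Members of this family are known to repress Dnmt1, a DNA methyltransferase. miR-148a is abundant in liver, where it represses the LDL receptor, and it has been tied to insulin synthesis in beta cells. Enzymes called terminal nucleotidyltransferases can add bases that the genome does not encode, mostly uridine or adenosine, to the 3′ end of a mature miRNA. Such forms are termed 3′ isomiRs, and forms with another start, and thus another seed, are termed 5′ isomiRs.

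The mature sequences are shown because 2 or 3 bases alone separate the 3p arms, while the arms of the same hairpin differed in opposite directions between v1.5 and TruSeq. They are RefSeq sequences on GRCm38.p6, printed 5′ to 3′ with the seed in capitals.
miR-148a-3p: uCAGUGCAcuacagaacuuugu
miR-148b-3p: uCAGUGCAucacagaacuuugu
miR-152-3p: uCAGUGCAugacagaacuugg
miR-148a-5p: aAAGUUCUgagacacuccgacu
miR-148b-5p: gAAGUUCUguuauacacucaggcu
miR-152-5p: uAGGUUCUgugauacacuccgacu
The seed CAGUGCA is that of 3 of the 1738 mature mouse miRNAs in RefSeq, which are these 3. Counting from 1 at the 5′ end and giving the base of the first-named miRNA first, miR-148a-3p and miR-148b-3p differ by C9U and U10C, miR-148a-3p and miR-152-3p by C9U, U10G and U20G, and miR-148b-3p and miR-152-3p by C10G and U20G. The 5p arms of miR-148a and miR-148b share the seed AAGUUCU, whereas miR-152-5p has AGGUUCU and starts with another base.

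Mir148a lies at chr6:51269812-51269910 on the minus strand, where GENCODE M21 has no other gene. Mir148b lies at chr15:103285125-103285221 in intron 1 of Copz1, and Mir152 at chr11:96850393-96850465 in intron 1 of Copz2, both on the plus strand and in the sense of the host gene (GRCm38). Copz1 and Copz2 encode the paralogous zeta subunits of coatomer, the coat of COPI vesicles. The deposited positions are on mm9, where the 3p arms start at 51219848 on chromosome 6, 103115615 on chromosome 15 and 96711752 on chromosome 11. In the hairpins below, capitals mark the mature arms, and the bases after them are those against which added 3′ bases are read.
Mir148a: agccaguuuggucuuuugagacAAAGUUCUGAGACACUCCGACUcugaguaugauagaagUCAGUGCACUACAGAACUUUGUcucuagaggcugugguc
Mir148b: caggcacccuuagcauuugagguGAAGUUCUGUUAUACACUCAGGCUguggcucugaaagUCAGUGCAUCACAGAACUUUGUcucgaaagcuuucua
Mir152: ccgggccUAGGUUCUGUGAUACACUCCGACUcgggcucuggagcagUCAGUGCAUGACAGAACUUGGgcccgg
At each of the 19 to 22 positions examined per arm, the base of the RefSeq hairpin was absent from the mismatches that the deposited alignments report. On the 3p arms the mismatches held all 3 other bases at 20 of 20, 19 of 20 and 19 of 19 positions. On the 5p arms they did so at 7 of 20, 9 of 22 and 0 of 22, in the order miR-148a, miR-148b and miR-152. The check hence says little for the 5p arms, least for miR-152-5p with 94 mismatched reads. At most 0.584% of the reads of a 3p arm were divided between several positions, and at most 0.0834% of the reads on a hairpin's strand fell outside the windows of 5 nt around the starts of its arms.

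The first question was how far the kit sets the measured level of each paralog in the same cells. All 3 of the 3p arms rose from TruSeq to v1.5, but by very different amounts. miR-148a-3p, the most abundant member, measured 11018, 11741 and 11247 RPMM in the TruSeq libraries and 18340, 18502 and 20282 RPMM in the v1.5 libraries. Its log2 fold change, v1.5 over TruSeq, was 0.75 (SE 0.05, edgeR quasi-likelihood test, Benjamini-Hochberg adjusted p = 2.53e-05), a call that was lost when all 671496 5′ ends were tested with no filter on low values (edgeR adjusted p = 0.489). miR-148b-3p measured 2142, 2209 and 1962 RPMM in TruSeq and 6250, 6414 and 6996 RPMM in v1.5, a log2 fold change of 1.64 (SE 0.07, edgeR adjusted p = 4.27e-06). miR-152-3p measured 288, 260 and 213.5 RPMM in TruSeq and 6113, 6397 and 7211 RPMM in v1.5, a log2 fold change of 4.70 (SE 0.14, edgeR adjusted p = 1.85e-06). The same cells thus gave miR-152-3p a level 25.9-fold higher by v1.5, against 3.11-fold for miR-148b-3p and 1.68-fold for miR-148a-3p, as ratios of mean RPMM. With exact alignments alone the log2 fold changes were 0.76 for miR-148a-3p, 3.62 for miR-148b-3p and 5.34 for miR-152-3p. The libraries of the kits did not overlap for any of the 3.

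The 5p arms went the other way. miR-148a-5p fell from 188, 176 and 177 RPMM in TruSeq to 71.5, 71.1 and 68.9 RPMM in v1.5, and its log2 fold change was -1.35 (SE 0.06, edgeR adjusted p = 5.13e-06). miR-148b-5p fell from 258, 236 and 219 RPMM to 157, 163 and 164 RPMM, with a log2 fold change of -0.56 (SE 0.08, edgeR adjusted p = 6.88e-04, and 0.0525 with no filter). miR-152-5p fell from 63.8, 75.7 and 66.7 RPMM to 15.5, 14.9 and 19.4 RPMM, with a log2 fold change of -2.05 (SE 0.14, edgeR adjusted p = 3.12e-05). miR-152 was therefore the hairpin with the largest difference between kits in both of its arms, in opposite directions. All 6 members passed the test, 3 in each direction, where 85.6% of all 3641 5′ ends did, 46.5% higher and 39.1% lower in v1.5. Groups that do not overlap were found for all 6 members and for 89.0% of all 5′ ends. The median log2 fold change was 0.09 over the 6 members and 0.26 over all 5′ ends, and 376 of all 5′ ends had a larger one than miR-152-3p. With TMM factors or DESeq2 size factors that median over all 5′ ends became 0.13 or 0.01, and the 6 members passed in the same directions.

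**Figure D1:**
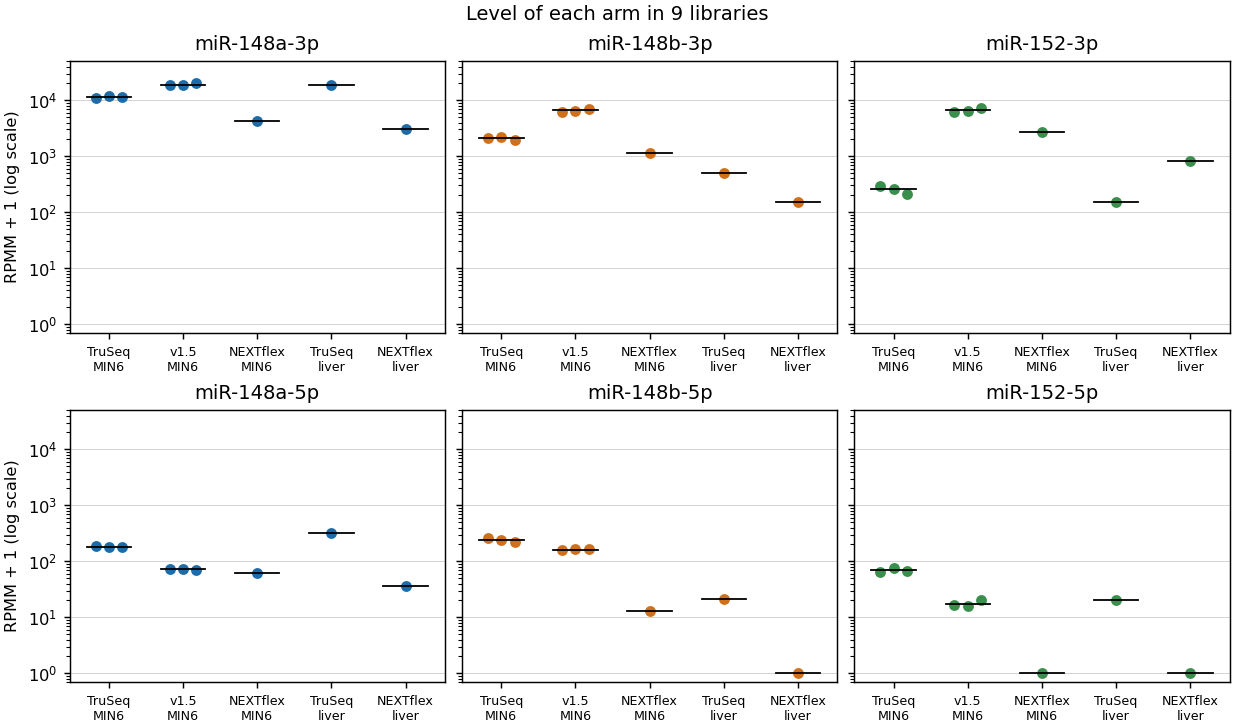
Level of each arm in 9 libraries (points, RPMM + 1 on a log scale), with the mean of each group as a line. The 3p arms are higher in v1.5 than in TruSeq, most of all miR-152-3p (6573 against 254 RPMM), and the 5p arms are lower; a point at 1 stands for a value listed at 0.

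Because the paralogs responded unequally, their order depended on the kit. In TruSeq libraries of MIN6, miR-148a-3p made up 82.8% ± 0.94 (SD, n = 3) of the reads of the 3 arms, miR-148b-3p 15.4% ± 0.67 and miR-152-3p 1.85% ± 0.28. By v1.5 these shares were 59.2% ± 0.48, 20.4% ± 0.10 and 20.4% ± 0.50, and miR-148b-3p and miR-152-3p had levels that did not differ beyond their spread (6554 ± 391.9 and 6573 ± 570 RPMM). In the NEXTflex library of MIN6 the shares were 52.9%, 14.0% and 33.1%, so that miR-152-3p stood above miR-148b-3p. The log2 ratio of miR-152-3p to miR-148a-3p within a library was -5.49 ± 0.23 in TruSeq and -1.54 ± 0.05 in v1.5, a difference of 3.96. That of miR-152-3p to miR-148b-3p differed by 3.06 and that of miR-148b-3p to miR-148a-3p by 0.89. None of the 3 ratios overlapped between kits, and the exact permutation test, two-sided, gave p = 0.1 for each, the smallest p that 3 against 3 libraries allow. Ratios of other miRNAs were not computed, and the levels of 89.0% of all 5′ ends did not overlap between these kits. With exact alignments alone, which leave out reads with added bases that differ from the genome, the last 2 differences became 1.73 and 2.86.

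**Figure D2:**
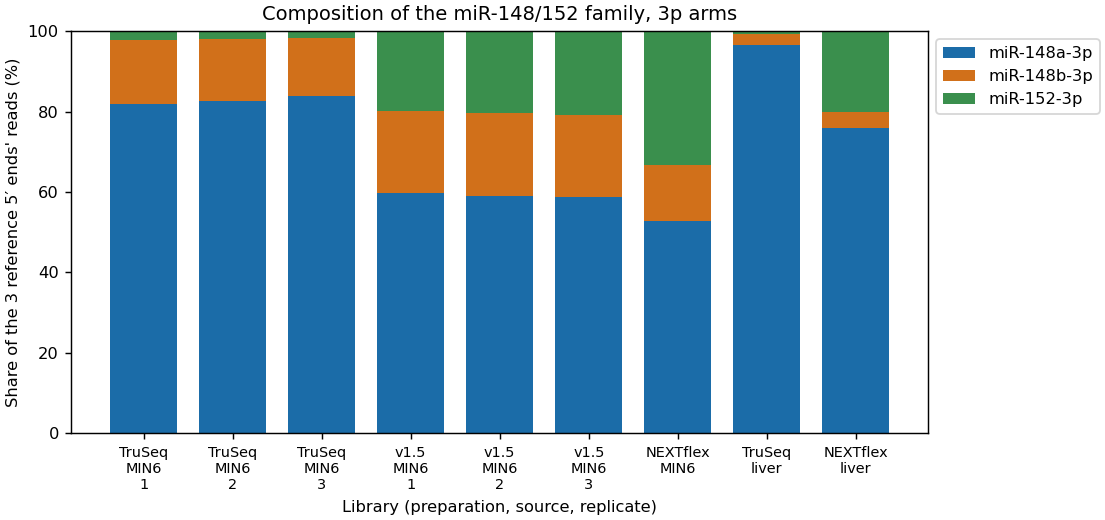
Share of each 3p arm in the reads at the 3 reference 5′ ends (%), stacked by library. miR-152-3p takes 1.85% on average in the TruSeq libraries of MIN6, 20.4% in v1.5, 33.1% in NEXTflex, and 0.78% and 20.2% in the TruSeq and NEXTflex libraries of liver.

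Reads of miR-148b-3p with a misread A or U at base 10, 1 of the 2 bases that tell it from miR-152-3p, amounted to at most 0.807% of the reads of miR-152-3p in any library, and to 0.394% to 0.807% in the TruSeq libraries of MIN6 and 0.555% in TruSeq liver, where miR-152-3p was lowest.

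The arm ratios of the hairpins restate the opposite directions of the arms. The 5p share of the reads at both reference 5′ ends of a hairpin was 1.57% ± 0.10 for miR-148a, 10.1% ± 0.56 for miR-148b and 21.5% ± 2.98 for miR-152 in TruSeq libraries of MIN6. In v1.5 libraries it was 0.370% ± 0.03, 2.41% ± 0.10 and 0.251% ± 0.02. The ratio of 3p to 5p reads of miR-152 was thus 3.202 to 4.52 by TruSeq and 373 to 429 by v1.5. With all starts within 5 nt of the reference ones, it was 1.92 to 2.56 and 211.8 to 225, and the 5p share of miR-152 28.1% to 34.2% and 0.443% to 0.470%. For each hairpin the libraries of the kits did not overlap (exact permutation test, two-sided, p = 0.1, n = 3 each). The levels above, without overlap and opposite for the arms, already fix this outcome, so it is no further result. Shares of other hairpins were not computed, and the levels of 89.0% of all 5′ ends did not overlap either. With exact alignments alone the difference for miR-148b grew from -7.74 to -39.0 percentage points. In TruSeq liver the 5p shares were 1.71% (Wilson 95% interval 1.67 to 1.76), 3.88% (3.49 to 4.31) and 11.5% (10.4 to 12.8) in the same order. By NEXTflex they were 1.40%, 1.04% and 0% in MIN6 and 1.14%, 0% and 0% in liver, so that miR-148a had the highest share there. Reads of miR-152-5p that start 1 nt further on are not counted in these shares.

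The 5p arms also differed between kits in their 3′ ends. Reads of mature length were 93.4% ± 1.21 of miR-148a-5p, 82.9% ± 1.19 of miR-148b-5p and 98.4% ± 0.34 of miR-152-5p in TruSeq, and 64.2% ± 2.91, 59.8% ± 1.93 and 46.8% ± 4.39 in v1.5. Mean lengths were 21.9 and 21.4 nt, 23.9 and 23.5 nt, and 24.0 and 22.9 nt in the same order, TruSeq first (exact permutation test, two-sided, p = 0.1 for each of the 3 arms, n = 3 each). Lower mean lengths in v1.5 without overlap were found at 27.3% of 3450 5′ ends with reads in all 6 of these libraries and at 37.7% of the 257 reference miRNAs among them.

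The 3′ ends of the 3p arms differed between kits as well. The forms named here reached 5% of the reads of an arm in at least 1 library, a limit set after the values had been seen. The leading ones are written out below, with bases added after the mature end in capitals.
miR-148a-3p with C: ucagugcacuacagaacuuuguC
miR-148b-3p with U: ucagugcaucacagaacuuuguU
miR-148b-3p with UU: ucagugcaucacagaacuuuguUU
miR-152-3p with U: ucagugcaugacagaacuuggU
miR-152-3p with UA: ucagugcaugacagaacuuggUA
miR-152-3p of 18 nt: ucagugcaugacagaacu
The hairpins of miR-148a and miR-148b both continue with C, then U, after the mature end, but the reads of miR-148b-3p did not. The longer reads of miR-148a-3p carried the C of the hairpin, which was their first added base in 47.4% ± 2.99 of all reads in TruSeq libraries of MIN6, against 3.95% ± 0.19 with U. On miR-148b-3p the hairpin's C was the first added base in 1.20% ± 0.16 of the reads and a U, which the genome does not encode there, in 83.3% ± 0.06. The order was the same in the other 6 libraries, where U came first in 36.8% to 85.0% of the reads of miR-148b-3p and C in at most 1.49%. The second U of the 24-nt form is also the base of the hairpin at that place, so whether it is templated cannot be read from the alignment. miR-152-3p, whose hairpin continues with G, had the most varied ends, with a first added U in 20.5% ± 1.67, G in 13.1% ± 1.57 and A in 8.78% ± 0.50 of its reads in TruSeq libraries of MIN6.

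Reads of the 3p arms were longer by TruSeq. In TruSeq libraries of MIN6, 51.9% ± 3.18 of the reads of miR-148a-3p, 86.2% ± 0.11 of those of miR-148b-3p and 42.9% ± 1.27 of those of miR-152-3p extended past the mature end. In v1.5 libraries 12.2% ± 0.34, 43.5% ± 1.07 and 10.2% ± 0.33 did. The mean aligned length of miR-148b-3p was 23.45 ± 0.01 nt by TruSeq and 22.52 ± 0.003 nt by v1.5, that of miR-148a-3p 22.57 ± 0.03 and 22.11 ± 0.002 nt, and that of miR-152-3p 21.32 ± 0.05 and 21.12 ± 0.004 nt. For each of these values the kits did not overlap and the exact permutation test, two-sided, gave p = 0.1 (n = 3 each). The share that extends past the mature end was not computed for other miRNAs, and the levels of 89.0% of all 5′ ends did not overlap either. Against the 27.3% of 5′ ends with shorter mean lengths in v1.5 given above, 40.4% were longer without overlap. Of the reference miRNAs 50.6% were longer and 37.7% shorter, with a median difference of 0.04 nt and a range of -0.47 to 0.65 nt between the 5th and 95th percentiles. The differences were -0.46 nt for miR-148a-3p, -0.93 nt for miR-148b-3p and -0.19 nt for miR-152-3p. The share of reads with a mismatch at their last base was lower by v1.5 for miR-148a-3p (3.29% ± 0.05 against 3.55% ± 0.18) and miR-152-3p (8.62% ± 0.24 against 41.5% ± 0.78), and higher for miR-148b-3p (36.3% ± 0.23 against 31.4% ± 0.54), where the 24-nt form ends on a match. That share was lower in v1.5 without overlap at 21.4% and higher at 20.7% of all 5′ ends, and at 41.6% and 41.2% of the reference miRNAs.

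**Figure D3:**
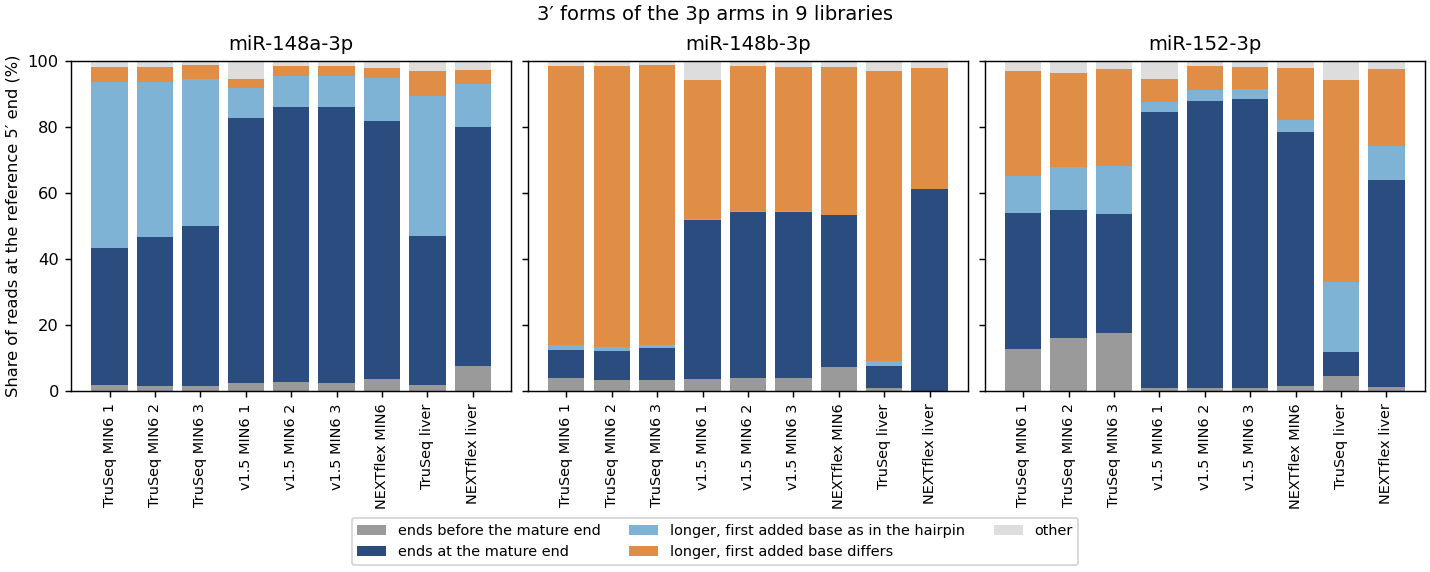
Share of reads at the reference 5′ end of each 3p arm (%) by their 3′ end, stacked by library; "other" holds reads with a mismatch or an unread base before the mature end, or at it. Reads that extend past the mature end take 86.2% of miR-148b-3p in the TruSeq libraries of MIN6 on average and 43.5% in v1.5, and on that arm nearly all of them start the extension with a base that differs from the hairpin.

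The mature ends differed more between the kits than the sums did, and for miR-148a-3p and miR-148b-3p a longer form lay in the opposite direction. The form of miR-148b-3p that ends at the mature end measured 189 ± 7.10 RPMM by TruSeq and 3255 ± 256 RPMM by v1.5, 17.2-fold higher, while its 24-nt form with UU measured 1131 ± 76.6 and 501 ± 46.6 RPMM, 2.26-fold lower. Of miR-148a-3p, the mature end measured 5123 ± 473 RPMM by TruSeq and 15720 ± 1145 RPMM by v1.5, 3.07-fold higher, and the 23-nt form with C 4842 ± 289 and 1500 ± 106 RPMM, 3.23-fold lower. Of miR-152-3p, the mature end measured 98.7 ± 21.1 RPMM by TruSeq and 5674 ± 608 RPMM by v1.5, 57.5-fold higher. A form of miR-152-3p cut short at 18 nt, which reached the limit of 5% in the TruSeq libraries of MIN6 alone and was thus chosen where it is high, made up 10.8%, 13.2% and 14.6% of the miR-152-3p reads in the TruSeq libraries of MIN6, at most 0.022% in v1.5 and 3.55% in TruSeq liver. Forms of other miRNAs were not compared.

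Ordered by length, the v1.5 to TruSeq ratio was lower for reads with added bases than for those at the mature end. For miR-152-3p, the log2 ratio with 1 RPMM added was 5.83 at the mature end, 3.45 for 1 added base, 1.12 for 2 and 0.89 for 3. For miR-148b-3p the same steps gave 4.10, 1.93, -0.91 and -0.26, and for miR-148a-3p 1.62, -1.38, -1.11 and -0.66. The ratio was thus highest at the mature end among these 4 lengths in each of the 3 paralogs, and for miR-148a-3p and miR-148b-3p it changed sign within them. Shorter reads did not continue this order. For miR-148a-3p the ratio was 1.73 at 1 nt, 3.88 at 2 nt and -2.45 at 3 nt before the mature end, and for miR-152-3p it was 4.03 at 1 nt and -3.88 at 3 nt before it. NEXTflex against TruSeq gave a like order from the mature end to 2 added bases for miR-148b-3p (1.46, -0.54 and -3.34 in MIN6, 1.48, -1.21 and -4.29 in liver) and miR-152-3p (4.38, 3.07 and 0.93 in MIN6, 5.44, 2.46 and 0.09 in liver). For miR-148a-3p it was -0.61, -3.70 and -1.34 in MIN6 and -1.92, -4.83 and -3.41 in liver, lowest for 1 added base. Both comparisons in MIN6 share the TruSeq libraries and are given side by side.

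**Figure D4:**
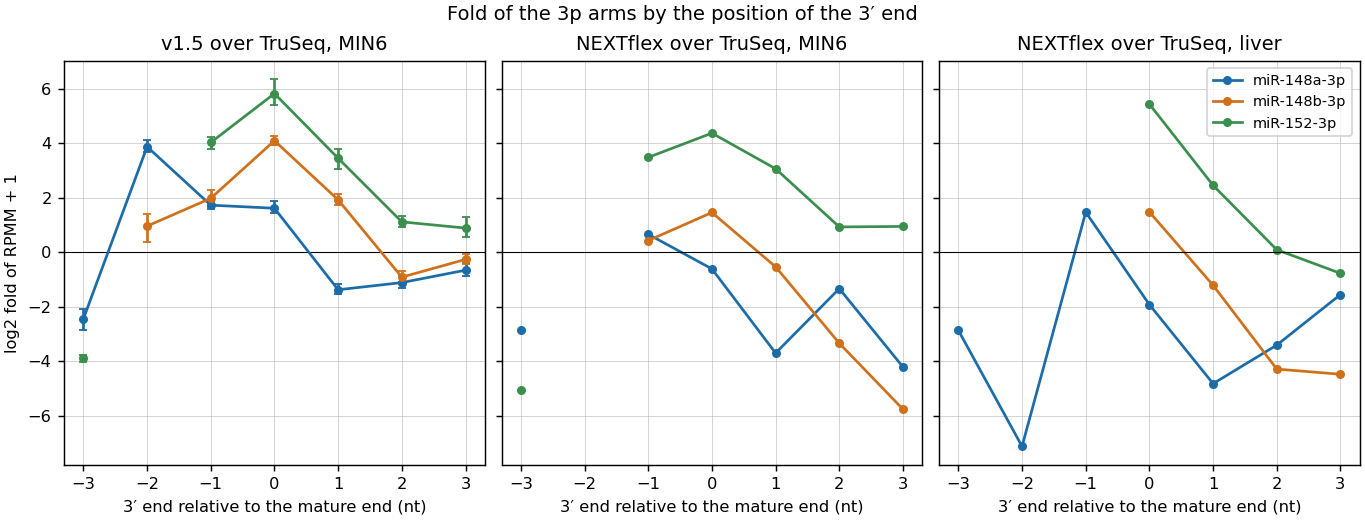
log2 fold of RPMM + 1 against TruSeq for reads that end 3 nt before to 3 nt after the mature end of each 3p arm; lengths under 10 RPMM in both groups are left out, and bars in the first panel span the 9 pairs of libraries. The mature end of miR-152-3p stands at 5.83, 4.38 and 5.44, and the curves of miR-148b-3p cross 0 between the mature end and 2 added bases.

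Between NEXTflex and TruSeq, miR-152-3p alone of the 6 reference 5′ ends was higher by NEXTflex when all alignments were counted. In MIN6 it measured 2687 RPMM (exact Poisson 95% interval 2667 to 2707) by NEXTflex against 254 ± 37.7 RPMM by TruSeq, 10.55-fold higher. In liver it measured 812 RPMM (797 to 827) against 150.2 RPMM (144.3 to 156), 5.38-fold higher. miR-148a-3p was 2.65-fold lower by NEXTflex in MIN6 (4285 against 11335 RPMM) and 6.09-fold lower in liver (3056 against 18624 RPMM). miR-148b-3p was 1.85-fold lower in MIN6 (1135 against 2105 RPMM) and 3.26-fold lower in liver (151.8 against 497 RPMM), but with exact alignments alone it was higher by NEXTflex, by 1.07 on the log2 scale in MIN6 and 1.04 in liver. Its direction hence rested on counting the reads with added bases. The folds in liver also depended on the library size. Without the reads of miR-122-5p, an alternative chosen after the data had been seen, NEXTflex was 2.90-fold lower for miR-148a-3p, 1.56-fold lower for miR-148b-3p and 11.3-fold higher for miR-152-3p.

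Of the 5p arms, miR-148a-5p measured 60.6 RPMM by NEXTflex in MIN6 and 35.4 RPMM in liver, 2.94-fold and 8.94-fold lower than by TruSeq, the latter 4.31-fold without the reads of miR-122-5p. miR-148b-5p was 18.4-fold lower in MIN6 (12.0 against 238 RPMM) and at 0 reads in NEXTflex liver, at least 96.3-fold lower than in TruSeq liver when set against a limit of 3 reads. miR-152-5p was at 0 reads at its reference start in both NEXTflex libraries, at least 586-fold lower than the TruSeq mean in MIN6 and at least 93.9-fold lower in liver. In MIN6, however, reads starting 1 nt further on were present at 35.7 RPMM, so that the arm was missing there by its start and not as a whole. Counting folds of more than 5 with 1 RPMM added, 3 of the 6 members passed in MIN6 (1 higher and 2 lower), where 68.3% of 4712 5′ ends did, 29.7% higher and 38.6% lower. With all starts within 5 nt summed, 2 passed in MIN6, since miR-152-5p then stood at a log2 fold of -1.69. In liver 5 of 6 passed (1 higher and 4 lower), where 67.3% of 6806 did, 27.5% higher and 39.7% lower, and without the reads of miR-122-5p 3 members passed. The median log2 fold was -1.48 over the members in MIN6 and -2.88 in liver. The median 5′ end was 1.87-fold lower by NEXTflex in MIN6 and 2.08-fold lower in liver. Without replicates these folds have no test.

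The tissue comparison asks which paralogs differ between beta-cell-like cells and liver, and whether the kit decides the answer. By both kits, the family leaned towards miR-148a in liver. miR-148a-3p took 96.6% of the 3 arms in TruSeq liver and 76.0% in NEXTflex liver, against 82.8% and 52.9% in MIN6 by the same kits. miR-148b-3p took 2.58% and 3.78% in liver, against 15.4% and 14.0% in MIN6. The ratio of miR-148a-3p to miR-148b-3p within a library was 6.96-fold higher in liver than in MIN6 by TruSeq and 5.33-fold by NEXTflex, that of miR-148a-3p to miR-152-3p 2.78-fold and 2.36-fold, and that of miR-152-3p to miR-148b-3p 2.51-fold and 2.26-fold. The ratio of miR-152-3p to miR-148a-3p itself was 28.0-fold higher by NEXTflex than by TruSeq in MIN6 and 32.9-fold higher in liver. The 3 tissue differences had the same direction by both kits, but for miR-152-3p to miR-148b-3p this held only where reads with added bases were counted. With exact alignments alone, the log2 folds of liver over MIN6 were 0.64 for miR-148a-3p, -2.66 for miR-148b-3p and -2.85 for miR-152-3p by TruSeq, and -0.52, -2.69 and -1.95 by NEXTflex, so that miR-152-3p was lower relative to miR-148b-3p by TruSeq and higher by NEXTflex.

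The levels did not give 1 answer. miR-148a-3p was higher in liver than in each MIN6 library by TruSeq, 1.64-fold over their mean, and lower by NEXTflex, 0.713 of the MIN6 level (95% interval 0.705 to 0.721). The same was seen with miR-148a-5p, which was 1.79-fold higher in liver by TruSeq and 0.590 of the MIN6 level by NEXTflex, with 1 RPMM added. In NEXTflex liver, miR-122-5p, the hepatocyte miRNA, measured 532452 RPMM, against 17244 RPMM in TruSeq liver. With its reads left out of the library size, miR-148a-3p was 1.53-fold and miR-148a-5p 1.24-fold higher in liver by NEXTflex, and 1.67-fold and 1.82-fold by TruSeq. miR-148b-3p and miR-152-3p were lower in liver by either kit and with either library size. miR-148b-3p was 4.23-fold lower by TruSeq and 7.44-fold by NEXTflex, and miR-152-3p 1.69-fold and 3.31-fold. Without the reads of miR-122-5p these were 4.16-fold and 3.49-fold for miR-148b-3p, and 1.66-fold and 1.55-fold for miR-152-3p. Exact alignments alone made miR-152-3p lower by 2.85 on the log2 scale in TruSeq liver in place of 0.75. The arm miR-148b-5p was 11.3-fold lower in TruSeq liver than in MIN6, and miR-152-5p 3.39-fold lower. By TruSeq, 1 member was more than 5-fold lower and none higher, where 76.1% of 6542 5′ ends passed, 48.6% higher and 27.4% lower. With exact alignments alone 3 passed in place of 1. By NEXTflex, 2 were lower, 1 of them miR-148b-5p at 0 reads in liver, and none higher, where 71.4% of 5434 passed, 44.5% higher and 26.8% lower. Without the reads of miR-122-5p, or with 5 RPMM added, 1 passed in place of 2, and with all starts within 5 nt summed 3 did. The median log2 fold was -1.26 over the 6 members by TruSeq and -1.73 over the 5 with reads by NEXTflex, miR-152-5p being at 0 in both libraries, against 2.17 and 1.51 over all 5′ ends.

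**Figure D5:**
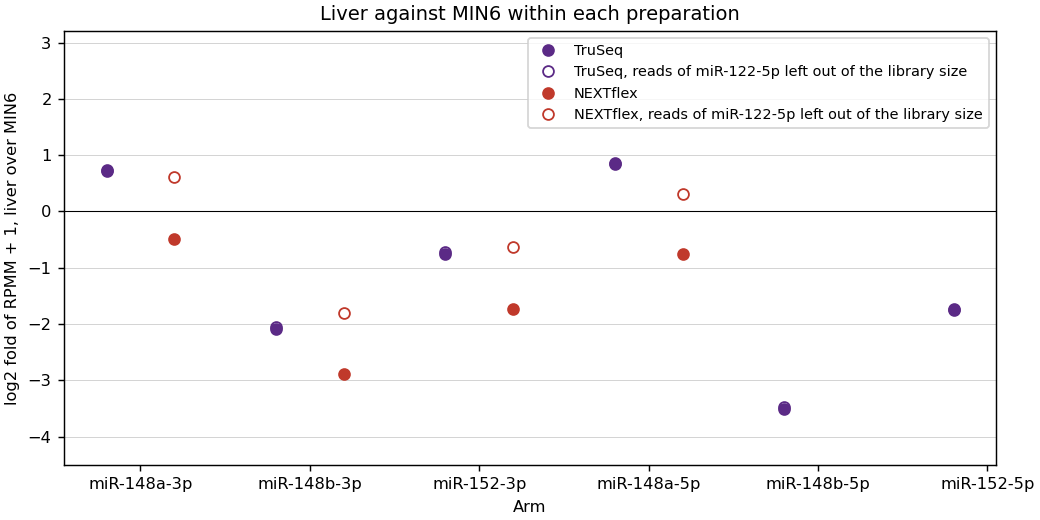
log2 fold of RPMM + 1, liver over MIN6, for each arm within TruSeq and within NEXTflex, with all mapped reads as library size (filled) and without the reads of miR-122-5p (open). The filled points of miR-148a-3p lie at 0.72 by TruSeq and -0.49 by NEXTflex, and the open one of NEXTflex at 0.61; arms at 0 reads in either library are left out.

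The 3′ ends differed between the tissues within a kit as well. miR-152-3p ended at the mature end in 7.15% of its reads in TruSeq liver, against 41.2%, 38.9% and 35.9% in the TruSeq libraries of MIN6, and the forms with A (14.1%) and GA (12.7%) took larger shares than in those libraries (5.99% to 7.36% and 5.59% to 6.61%). The forms with UA (13.7%) and AA (9.85%) reached the limit of 5% in TruSeq liver alone and were thus chosen where they are high. In NEXTflex, its mature end held 62.7% of the reads in liver and 77.1% in MIN6. The 24-nt form of miR-148b-3p with UU took 61.8% in TruSeq liver against 53.2%, 54.5% and 53.5% in MIN6, and 10.4% and 6.24% in NEXTflex. On miR-148a-3p, the 24-nt form with CU, both bases being those of the hairpin, reached that limit in liver alone and was thus chosen where it is high. It took 11.2% in TruSeq liver against 3.87% to 4.38% in the TruSeq libraries of MIN6, and 7.52% and 4.95% in NEXTflex liver and MIN6.

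Starts were far more fixed than ends. Between 0.0086% and 1.58% of the reads within 5 nt of the reference start of a 3p arm began elsewhere. The share was higher by v1.5 than by TruSeq for miR-148b-3p (0.255% ± 0.02 against 0.175% ± 0.01), lower for miR-152-3p (0.401% ± 0.02 against 1.03% ± 0.23; exact permutation test, two-sided, p = 0.1 for both) and overlapped for miR-148a-3p (0.320% ± 0.03 against 0.277% ± 0.02, exact permutation p = 0.2). There were 11 shifted starts that reached 10 RPMM in a library. The strongest on a 3p arm was 1 nt upstream of miR-148a-3p, at 188 RPMM in TruSeq liver but 0.0695 RPMM (1 read) in NEXTflex liver, from the same RNA. In MIN6 it measured 7.07 to 8.03 RPMM by TruSeq, 14.4 to 17.6 RPMM by v1.5 and 23.8 RPMM by NEXTflex. At least 93.6% of its reads in any library had a mismatch or an unread base at that first position. Its log2 fold change between the kits in MIN6 was 1.06 (SE 0.12, edgeR adjusted p = 2.70e-04). The start 2 nt downstream of miR-148a-3p measured 8.19 ± 1.48 RPMM by TruSeq and 34.4 ± 6.20 RPMM by v1.5, with a log2 fold change of 2.06 (SE 0.21, edgeR adjusted p = 1.51e-04). It reached 10 RPMM in the v1.5 libraries alone and was thus chosen where it is high. The start 1 nt downstream of miR-148a-3p fell by 0.98 on the log2 scale (SE 0.13, edgeR adjusted p = 5.20e-04).

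miR-152-5p had no single start. The reads that began 1 nt downstream are shown with their own seed in capitals.
miR-152-5p, 1 nt later: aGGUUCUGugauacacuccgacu
They made up 41.5% ± 2.08 of both starts in TruSeq libraries of MIN6, 44.7% ± 4.22 in v1.5 and 38.6% in TruSeq liver, and all 913 reads in NEXTflex MIN6. The shares of TruSeq and v1.5 overlapped (exact permutation test, two-sided, p = 0.4, n = 3 each). Like the reference start, this one fell by v1.5, from 48.6 ± 2.81 to 13.3 ± 0.47 RPMM, with a log2 fold change of -1.86 (SE 0.10, edgeR adjusted p = 1.00e-05). Of the remaining 5p starts, the one 1 nt downstream of miR-148b-5p fell by 1.25 on the log2 scale (SE 0.10, edgeR adjusted p = 5.65e-05). The start 1 nt upstream of miR-148a-5p, at 10.8 ± 0.38 RPMM by TruSeq and 4.32 ± 1.11 by v1.5, was too low for the test, and reached 10 RPMM in TruSeq libraries alone.

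The paralogs were not each other's nearest miRNAs. Over the 5 group means, likeness was measured as the Euclidean distance between centred log2(RPMM + 1) profiles, among 269 other reference miRNAs. miR-148a-3p was nearest to miR-23a-3p (distance 1.09), miR-30e-3p (1.36) and miR-23b-3p (1.57). miR-148b-3p was nearest to miR-32-5p (1.19), miR-186-5p (1.38) and miR-27b-5p (1.68). miR-152-3p was nearest to let-7g-5p (1.98), which measured 3386 RPMM by TruSeq, 28139.8 by v1.5 and 22923 by NEXTflex in MIN6, and then to miR-140-5p (2.13) and miR-1981-5p (2.14). The distances within the family were 3.21 between miR-148a-3p and miR-148b-3p, 4.399 between miR-148b-3p and miR-152-3p and 5.47 between miR-148a-3p and miR-152-3p. These profiles rest on 5 values that mix kit and tissue, and are a description.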

How the data were processed

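Small RNA reads of 9 libraries were analysed as deposited. The authors trimmed adapters, aligned the reads to mm9 (cutadapt and Bowtie in the submitters' processing notes, versions not given in the sources used here) and deposited expected counts per alignment, in which a read with several alignments is divided among them. Here the expected counts were summed by 5′ end, scaled to the mapped reads the study lists (RPMM) and, for the count test, rounded to whole numbers. Reads came to between 6644520 and 25566100 per library. Reference 5′ ends were named where their weights equalled the study's listed values within a relative tolerance of 3e-05.

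v1.5 was tested against TruSeq in MIN6 (3 libraries each) with edgeR 4.0.16 (quasi-likelihood, mapped reads as library size, 5′ ends averaging at least 10 RPMM, Benjamini-Hochberg adjustment over all 3641, threshold 0.05), with DESeq2 1.42.0 as an alternative. Single values were compared by two-sided exact permutation tests in SciPy 1.17.1. Comparisons with 1 library in a group have no test, and their folds are on a scale with 1 RPMM added. Shares carry Wilson and levels exact Poisson 95% intervals. The named items were the 6 arms, their shifted starts within 5 nt that reached 10 RPMM in a library, the 3 nearest profiles of each 3p arm, and the markers. The members and lists were chosen with earlier results of these data known. Replicate libraries differed by more than sampling noise, and none was merged. The scripts were tested on simulated data.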

Additional observations from a re-analysis of the deposited data

Results flagged for a closer look

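The following differences between liver and MIN6, or between kits, pointed in opposite directions in 2 settings. None of these differences of differences was tested, since most groups hold 1 library. The level of miR-148a-3p in liver was 1.64 times its MIN6 mean by TruSeq and 0.713 times by NEXTflex, and that of miR-148a-5p 1.80 and 0.584 times, with no constant added. Without the reads of miR-122-5p in the library size, both arms were higher in liver by either kit. With 1 RPMM added, the values were then 1.67 and 1.53 times for miR-148a-3p and 1.82 and 1.24 times for miR-148a-5p. The 5p share of miR-148a differed, liver minus MIN6, by 0.143 percentage points by TruSeq and by -0.251 by NEXTflex. The share of shifted starts of miR-148b-3p differed, liver minus MIN6, by 0.642 percentage points by TruSeq and by -1.05 by NEXTflex. Between kits, NEXTflex minus TruSeq, the same share differed by 0.902 percentage points in MIN6 and by -0.794 in liver. The share of miR-148a-3p reads with a mismatch at the last base differed, NEXTflex minus TruSeq, by 0.151 percentage points in MIN6 and by -0.758 in liver.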

How the results depend on the processing

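Of 499 values under alternatives, 443 were classed as unchanged, by rules that differed with the kind of value. Counts had to change little, edgeR values to keep sign and call, and single-library folds to move by less than the spread. Shares, ratios and lengths had only to keep their sign. The 443 thus include 4 members called in place of 6 with no filter, and -39.0 in place of -7.74 percentage points for the 5p share of miR-148b. No called value turned its sign, but uncalled folds did: miR-148b-3p for NEXTflex over TruSeq, and both arms of miR-148a for liver over MIN6 by NEXTflex. The number of 5′ ends called between v1.5 and TruSeq, 3117 of 3641, and its share of those tested differed with the filter and the counts used: 12533 of 16486 with a filter of 1 RPMM, 27396 of 671496 with none, 318 of 343 among listed miRNAs, 1992 of 2315 with exact alignments alone and 1028 of 1692 with whole-number counts alone. All members tested stayed called except with no filter, where miR-148a-3p (log2 fold change 0.75, edgeR adjusted p = 0.489) and miR-148b-5p (-0.56, edgeR adjusted p = 0.0525) did not pass. Their cause was not tested. TMM factors gave 3113 and DESeq2 3125 calls. Members past 5-fold, NEXTflex over TruSeq in liver, were 3 in place of 5 without the reads of miR-122-5p. For liver over MIN6 they were 3 in place of 1 by TruSeq with exact alignments alone, and 1 in place of 2 by NEXTflex both with 5 RPMM added and without the reads of miR-122-5p. With all starts within 5 nt summed they were 2 in place of 3 for NEXTflex over TruSeq in MIN6 and 3 in place of 2 for liver over MIN6 by NEXTflex, and with 5 RPMM added 4 in place of 5 for NEXTflex over TruSeq in liver. Leaving out 1 library at a time gave 2994 to 3115 calls, and 4.59 to 4.80 for the log2 fold change of miR-152-3p.

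With the replicate number as a block, 3087 5′ ends and all 6 members were called. The deviations of same-numbered libraries correlated at 0.174, -0.0649 and 0.0274, and not every library correlated best with its own. Whether same-numbered libraries share an RNA or a culture cannot be told from these values.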

Other observations

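Reads of the 5p arms with C at base 2 as their first mismatch were seen mainly in 2 of the 9 libraries. On miR-148a-5p they made up 3.61% and 3.33% of the reads in TruSeq MIN6 replicates 1 and 2, 0.047% in TruSeq MIN6 replicate 3 and 0% in the other libraries. On miR-148b-5p they made up 3.27% and 3.40% in the same 2 libraries and at most 0.059% elsewhere, and on miR-152-5p 2.12% and 2.70% and 0% elsewhere where it had reads.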
